A study of Ziziphus nummularia with 2 samples.

Results

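Ziziphus nummularia, a wild relative of jujube, is a spiny shrub that grows in arid country, and the data compare its seedlings under drought and under a normal water supply. The contigs described here, 221 of the 98230 assembled stretches of transcript listed by the authors, are those at least 16-fold higher in the drought library. Both libraries came from whole seedlings of genotype CIAHZN-J, the drought library at a water potential of -0.3 MPa and the control library at 0 MPa, with 1 library for each condition. Neither condition has a replicate here, so a difference is one between 2 libraries, could not be checked against replicate spread and is given without a p-value. The sources used here do not say how the water potential was set, for how long, or how many seedlings were taken. In RNA from whole seedlings, a change in the number of cells of a type and a change of RNA per cell cannot be told apart.

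The contigs were chosen by their levels in these same 2 libraries. The level is FPKM, a read count divided by contig length (in units of 1000 bases) and by the size of the library. A contig was kept when it had at least 1 FPKM in one library, which held for 59206 contigs. The log2 ratio of drought over control was taken after adding 1 FPKM to both values, and a contig belongs to the set when that ratio is at least 4, which is 16-fold on this scale. The 221 contigs are 0.373% of those kept, and this share only describes the rule. With 1 FPKM added, a contig needs at least 15 FPKM in drought to enter, even when it has no control read at all. Of the 10718 contigs that reached this drought level, 2.06% are in the set.

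Plants short of water accumulate the hormone abscisic acid, which closes stomata and switches on many genes through promoter elements bound by bZIP factors. Other genes respond through DREB factors without the hormone. Transcripts known for large increases under water deficit in other plants include those of late embryogenesis abundant proteins and dehydrins, which protect cell structures as water is lost, enzymes that make compatible solutes such as proline, small heat shock proteins, and lipid transfer proteins. The files pair no contig with a gene name, description or sequence, so it is not known which of the 221 contigs, if any, belong to these groups. They are described by level, read support and length.

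The drought level of the 221 contigs ranged from 15.2 to 1067 FPKM, with a median of 53.5 and quartiles of 31.0 and 139 FPKM. Their control level ranged from 0 to 23.6 FPKM, with a median of 0.626 and quartiles of 0.185 and 2.14 FPKM. The 2 ranges overlap across contigs, while within each contig the rule sets the levels far apart. The log2 ratio had a median of 4.73 and reached 8.54, and 91 contigs had a ratio of at least 5, 39 of at least 6 and 10 of at least 7. These values chose the contigs and are a description of the set.

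**Figure D1:**
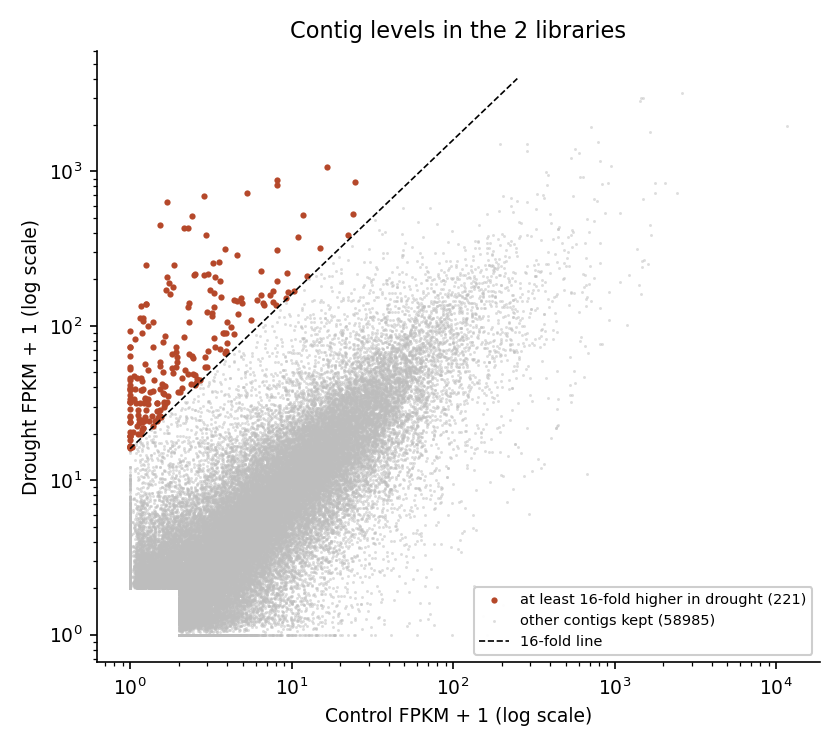
Drought FPKM + 1 (vertical) against control FPKM + 1 (horizontal), both on log scales, for the 59206 contigs kept; the 221 contigs at least 16-fold higher in drought are coloured and the other 58985 are grey. The coloured points lie on or above the dashed 16-fold line, from 15.2 to 1067 FPKM in drought, and none exceeds 23.6 FPKM in the control.

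A few of these contigs were among the most abundant of the drought library. Of the 100 contigs with the highest drought FPKM, 16 were from the set, as were 74 of the highest 1000 and 172 of the highest 5000. In the control library, none of the 221 was among the highest 5000, and the best placed one stood at place 6372. At the median, they held place 2450 in drought and place 61462 in the control. Both rankings use the values that chose the contigs, so they show where the set sits and nothing more.

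The most abundant contig of the set, number 563328, is 750 bases long. It had 14957 reads in drought and 359 in the control, which is 1067 FPKM (95% counting interval 1050 to 1084) and 15.5 FPKM (13.9 to 17.2). It was 68.9-fold higher in drought (62.1 to 76.8) and moved to place 17 of the drought library, against place 10315 of the control. The contig with the most drought reads, number 574102, is 1037 bases long. It had 15815 drought and 230 control reads, or 816 and 7.17 FPKM, and was 114-fold higher (99.9 to 130.2). Both contigs had over 200 reads in the control too, so both folds rest on many reads in each library.

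The 10 contigs with the highest drought levels all exceeded 500 FPKM there, and 1 of them was under 1 FPKM in the control. After contig 563328 came one of 683 bases, with 881 FPKM in drought and 7.10 in the control, and one of 455 bases, with 849 and 23.6 FPKM. The drought counting intervals of these 2 overlapped, so their order is not settled by the reads. Contig 574102 was the fourth. The 455-base contig had the highest control level of the set and was 36.0-fold higher in drought (32.2 to 40.3), against 124-fold (106 to 147) for the 683-base contig.

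Short contigs made up most of the next places. A contig of 182 bases had 723 FPKM in drought and 4.26 in the control, and one of 209 bases had 691 and 1.86 FPKM, again with overlapping drought intervals. A contig of 184 bases had 632 and 0.703 FPKM, from 2174 drought and only 4 control reads. Its fold therefore has a wide interval, 351 to 3303, although the counting interval of its drought level is narrow, 606 to 659 FPKM.

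The last 3 of the 10 lay close together in drought. A contig of 900 bases had 533 FPKM in drought and 23.1 in the control, from 8961 and 644 reads, and its 23.0-fold difference (21.3 to 24.98) was the smallest of the 10. A contig of 414 bases had 523 and 10.7 FPKM, and one of 181 bases had 513 and 1.43 FPKM. In drought, 4 of the 9 pairs of neighbours in this order had overlapping counting intervals, these 3 contigs among them. The 10 contigs covered 513 to 1067 FPKM in drought and 0.703 to 23.6 FPKM in the control. They were taken by their drought level, so these 2 spans cannot be compared.

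**Figure D2:**
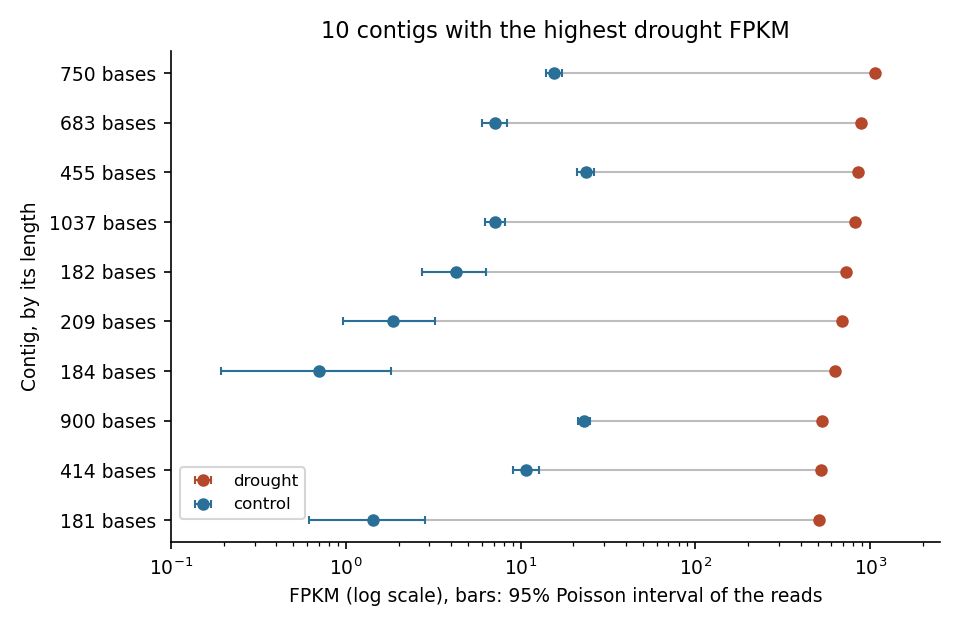
FPKM on a log scale in drought and in the control for the 10 contigs of the set with the highest drought FPKM, one row per contig labelled with its length; points are the values of the single library per condition and bars the exact 95% Poisson interval of the reads. Drought points lie between 513 and 1067 FPKM, while control points spread from 0.703 to 23.6 FPKM.

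The 221 contigs together had 212468 reads in drought, 2.87% of the 7406331 drought reads on contigs (95% Wilson interval 2.86% to 2.88%). In the control they had 6318 reads, 0.0505% of 12509371 (0.0493% to 0.0518%). As a share of summed FPKM, which does not favour long contigs, they held 3.46% in drought and 0.0563% in the control. Reads carry no molecular identifiers, so copies of the same molecule cannot be told apart and may make the intervals too narrow. These and all other intervals cover counting error only. They say nothing about variation between seedlings.

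A few contigs carried much of this. The contig with the most drought reads held 7.44% of the set's drought reads, the first 3 held 19.8%, the first 10 held 37.9% and the first 50 held 72.5%. It took 20 contigs to reach 50% and 69 to reach 80%. Of the set's control reads, the same contigs held 3.64% (the first), 11.7% (the first 3), 38.3% (the first 10) and 74.5% (the first 50). The control shares of the first and the first 3 were thus lower than their drought shares, and those of the first 10 and 50 were close to them.

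**Figure D3:**
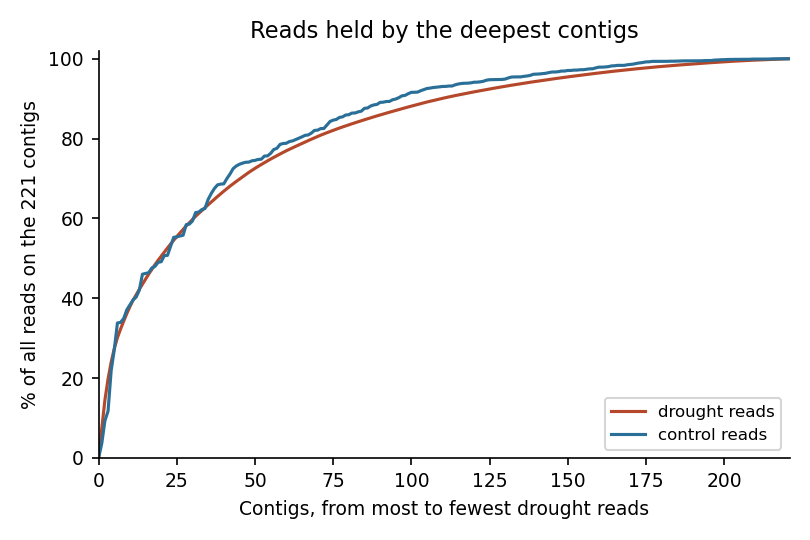
Cumulative share of all drought reads and of all control reads on the 221 contigs (vertical, %), with contigs in order of drought reads (horizontal). The first 3 contigs hold 19.8% of the drought and 11.7% of the control reads, and the first 10 hold 37.9% and 38.3%.

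Most of the set had many reads in the drought library. The lowest count was 57 reads, the median was 378 and the highest 15815. At least 100 drought reads were found on 202 contigs, at least 500 on 88, at least 1000 on 51 and at least 5000 on 6, while 19 had under 100. Relative counting error is therefore smaller on the drought side of the ratio than on the control side. The rule asks for at least 15 FPKM in drought and a far lower control level, so this pattern follows largely from it. The median control count was 7 reads, 130 contigs had at most 10, and 32 had at least 50.

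The set divides by how near to absent a contig was in the control. No control read was found for 33 contigs (14.9% of the 221). A further 7 had reads but under 0.1 FPKM, and 92 had 0.1 to 1 FPKM. Of the rest, 64 had 1 to 5 FPKM and 25 had 5 FPKM or more. In all, 132 contigs, or 59.7%, were under 1 FPKM in the control, and the other 89 had 1 FPKM or more. This cut is one of level and not of read support. The longest contig, under it, had 64 control reads, and the shortest, above it, had 7.

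The 33 contigs without a control read were not the abundant ones. Their drought levels ran from 15.2 to 91.3 FPKM with a median of 31.1, from 57 to 354 reads, and none was longer than 452 bases. A count of 0 allows up to 3 reads, which on these lengths is 0.215 to 0.638 FPKM in the control, so a low control level is not shown to be absent. With 3 control reads as the limit and the drought count taken as measured, they were 31.4-fold to 195-fold higher in drought, with a median of 71.7. The lower bounds of the exact counting intervals of the fold were smaller, from 24.7 to 158 for these 33 contigs. The contig with the most drought reads among them, 265 bases long, had 354 drought reads and no control read, or 71.5 FPKM in drought (64.2 to 79.3). With its drought count taken as measured, it was 195-fold higher at the same limit of 3 control reads. The exact counting interval of its fold had a lower bound of 158. All kept contigs with at least 15 drought FPKM and no control read are in the set by the rule itself.

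The 25 contigs with 5 control FPKM or more were at the other end. Their drought levels ran from 135 to 1067 FPKM with a median of 211, and their control levels from 5.11 to 23.6 FPKM with a median of 7.18. Each had at least 475 drought and 27 control reads. Their folds without the added 1 FPKM ran from 17.6 to 124, with a median of 24.7. Although these were 11.3% of the contigs, they held 44.5% of the set's drought reads and 64.4% of its control reads. The 33 contigs without a control read held 2.29% of the drought reads.

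**Figure D4:**
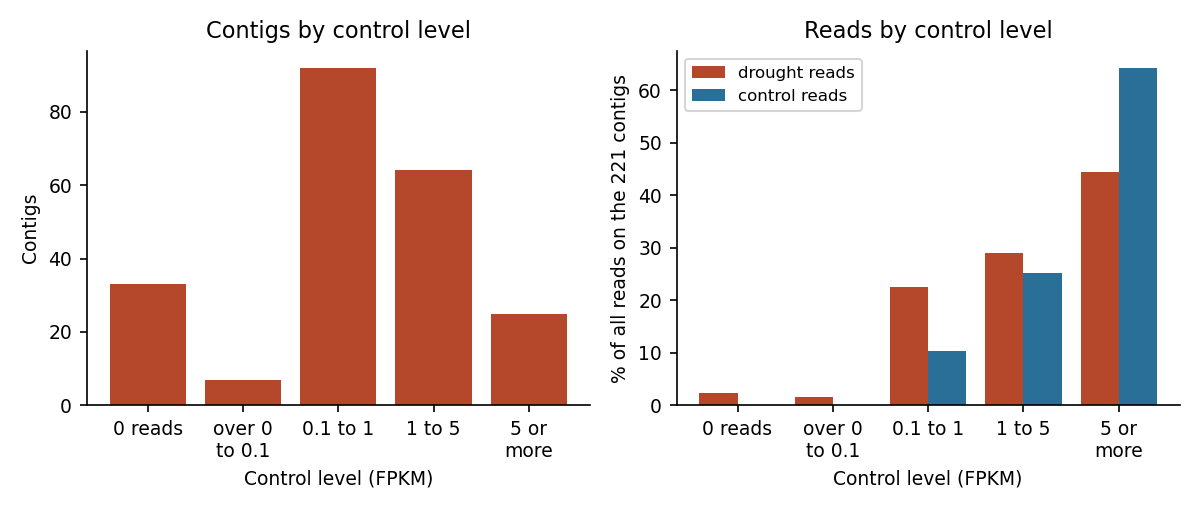
Left, number of contigs of the set by control level; right, share of all reads on the 221 contigs (%) in drought and in the control for the same classes. The class of 0.1 to 1 FPKM has the most contigs (92), while the 25 contigs of 5 FPKM or more hold 44.5% of the drought and 64.4% of the control reads.

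The contigs between these ends held most of the remaining reads. The 92 contigs of 0.1 to 1 control FPKM had a median of 36.7 FPKM in drought and 0.412 in the control, and held 22.5% of the set's drought reads. The 64 contigs of 1 to 5 control FPKM had medians of 105 and 2.04 FPKM and held 29.1%. The rule asks for a higher drought level where the control level is higher, so the order of these medians follows from it.

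The added 1 FPKM compresses the ratio of the contigs low in the control. Without it, the 188 contigs with a control read were 17.6-fold to 1109-fold higher in drought, with a median of 69.1. A fold of at least 100 was found for 78 of them and of at least 200 for 37. Of the 188, 43 had only 1 to 3 control reads, and their folds have wide intervals. The lower bound of the exact 95% counting interval of the fold was at least 16 for 173 of these 188 contigs and at least 8 for all 188. The contigs were chosen for a large difference in these reads, and such a choice favours contigs whose control count happened to be low.

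The contigs nearest the threshold were taken by their ratio, and their levels differ, from 14.8 to 166 FPKM in drought. The one just inside, of 487 bases, had 166 FPKM in drought and 9.43 in the control and a log2 ratio of 4.003. The next, of 1302 bases, had 15.5 and 0.0248 FPKM from 378 and 1 reads, and the third, of 240 bases, had 15.2 FPKM from 68 drought reads and no control read. Just outside were a contig of 374 bases with 16.3 and 0.0865 FPKM and a ratio of 3.99, one of 199 bases with 25.3 and 0.650 FPKM, and one of 173 bases with 14.8 FPKM from 48 drought reads and no control read. Contigs with no control read thus stand on both sides, separated by a few reads. Without the added 1 FPKM, the first 2 contigs outside were 189-fold and 38.9-fold higher, against 17.6-fold and 625-fold for the first 2 inside. The 189-fold and 625-fold values rest on 1 control read each. With 1 FPKM added, 635 contigs (1.07% of those kept) were at least 8-fold higher. The 414 of them that were under 16-fold on this scale had a median of 23.6 FPKM in drought and 1.21 FPKM in the control. Of these, 193 (46.6%) were under 1 control FPKM.

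The share of contigs that belonged to the set differed with the drought level. It was 36 of 4539 contigs (0.793%) at 15 to 25 drought FPKM, 68 of 3518 (1.93%) at 25 to 50, and 43 of 1611 (2.67%) at 50 to 100. It was 64 of 992 (6.45%) at 100 to 500 FPKM and 10 of 58 (17.2%) at 500 FPKM or more. A contig near 15 FPKM can enter only when it is nearly absent from the control, so part of this order is set by the rule. At 15 to 25 drought FPKM the rule admits only contigs under 1 FPKM in the control, so all 36 were, and 14 of them had no control read. At 100 to 500 FPKM, 15 of 64 were under 1 control FPKM and none was without a control read.

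Length was not part of the rule except through FPKM. The 221 contigs were 150 to 2185 bases long with a median of 315, against a median of 377 bases for the other 10497 contigs with at least 15 drought FPKM. Contigs under 200 bases made up 22.2% of the set and 15.7% of the others, those of 500 to under 1000 bases 17.2% and 24.9%, and those of 1000 bases or more 6.79% and 12.2%. Median lengths were 283.5 bases for the 414 contigs 8- to 16-fold higher, 271.5 for those at least 16-fold lower and 333 for all kept. Short length is thus not particular to the set. Several contigs may come from a single gene, and none of these differences was tested. Short contigs gather fewer reads at a given level, and the 33 without a control read had a median length of 226 bases, against 341 bases for the 188 with one.

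The set held 15 contigs of 1000 bases or more. The longest, of 2185 bases, had 2337 drought and 64 control reads, or 57.2 FPKM in drought (54.9 to 59.6) and 0.947 in the control (0.729 to 1.21), and was 60.4-fold higher (47.1 to 78.7). At the other end, a contig of 150 bases, the shortest length in the data, had 114 drought and 7 control reads, or 40.7 and 1.51 FPKM. Its fold of 26.9 had an interval of 12.7 to 68.5, the lowest lower bound among the contigs with a control read.

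**Figure D5:**
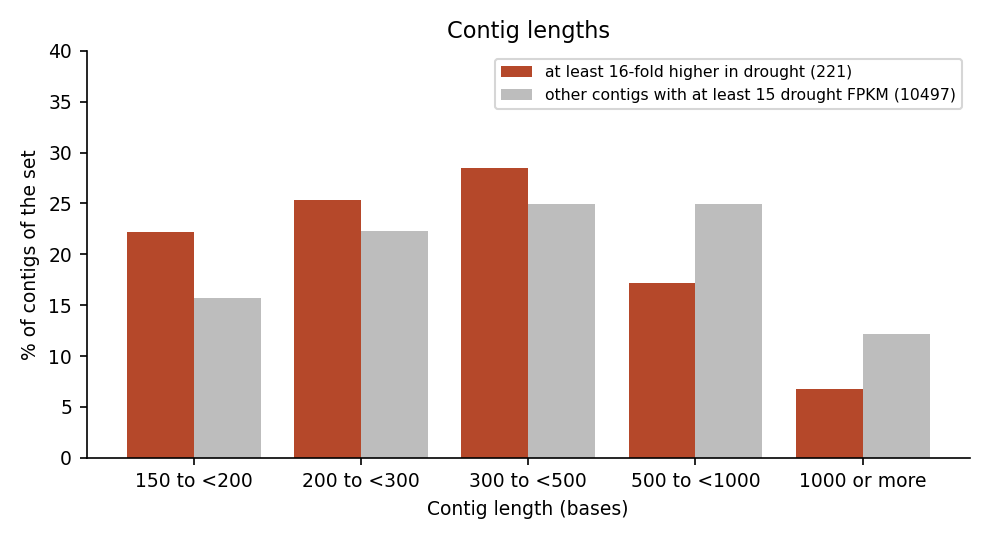
Share of contigs (%) by length class for the 221 contigs at least 16-fold higher in drought and for the other 10497 contigs with at least 15 FPKM in drought. Of the set, 22.2% are under 200 bases and 6.79% have 1000 bases or more, against 15.7% and 12.2% of the others.

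In the opposite direction, 112 contigs (0.189% of those kept) were at least 16-fold lower in drought. How this count compares with the 221 depends on the added value. With 0.1 FPKM added there were 1214 lower and 1229 higher, with 0.5 FPKM 219 and 365, and with 5 FPKM 21 and 62. With 0.5 read in place of an added FPKM there were 1183 lower and 1638 higher. In the library where they were high, the control, the 112 had a median of 51.6 FPKM, against 53.5 FPKM for the 221 contigs in drought. The rule sets the same floor of 15 FPKM for both, so these medians follow in part from it. No drought read was found for 22 of the 112 (19.6%). That share is not comparable with the 14.9% above, since 1 read on 1000 bases is worth 0.0535 FPKM in the shallower drought library and 0.0323 FPKM in the control. The contigs lower in drought held 0.0385% of the drought and 1.25% of the control reads on contigs.

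The number of contigs in the set depends on the added value. With 5 FPKM added, 62 contigs remained at least 16-fold higher, all among the 221, and they held 2.001% of the drought reads, so that they carry most of the reads of the set. Only 1 of the 62 had no control read. With 0.5 FPKM the set had 365 contigs and with 0.1 FPKM 1229, of which 668 had no control read. These sets hold all of the 221 by construction, because a smaller added value raises the ratio of each contig that is higher in drought.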

How the data were processed

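RNA of 2 seedling libraries was measured, 1 from drought and 1 from control. The drought label's unit was read as MPa from the sample title. Trizol extraction and an Illumina TruSeq RNA kit were used, per the labels' protocols. The submitters' processing notes list Bowtie2, with neither version nor role. The sources used here do not name the assembler, the counter or the strand setting. The authors deposited whole-number read counts per contig and FPKM values computed from them, per the file headers.

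Contigs were joined by number. Contig lengths were recovered from count divided by FPKM, which moves in equal steps (to within 0.01 of a step) that were taken as single bases. Lengths were found for 97409 contigs, and the library totals behind FPKM were 18689979 for drought and 30922631 for control. These totals exceed the 7406331 and 12509371 reads listed on contigs, and what they count (single reads or pairs) is unknown. The absolute FPKM depends on this. So do the log2 ratio with 1 FPKM added and the number of contigs that pass it. The fold without the added 1 FPKM does not, provided both totals count the same thing. Shares of reads are of the reads on contigs. The other 821 contigs had no read. Contig numbers run in the order of length and carry no gene information. A read that fits several near-identical contigs may have been listed on any of them.

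Folds are ratios of FPKM, with exact (Clopper-Pearson) 95% intervals from the 2 counts. Intervals of a level are exact Poisson, and of a share Wilson. A count of 0 allows up to 3 reads. The rule of 16-fold was also run on counts simulated with counting error only, which cannot speak to variation between seedlings. The contigs named by number are those with the highest drought FPKM and with the most drought reads; the others were taken by a fixed place (length, control level, distance from the threshold, the 10 highest). The contigs, the rule and the places were chosen with earlier results of these data known. Alternatives were other added values, filters, scalings and thresholds. Python 3.11.15, pandas 2.3.3, numpy 2.4.6 and scipy 1.17.1 were used.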

Additional observations from a re-analysis of the deposited data

How the results depend on the processing

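The number of contigs moved most with the added value, and their share of the drought reads most with the threshold. With 0.1 FPKM there were 1229 contigs, 668 of them without a control read, with 3.67% of the drought reads, a median of 5.07 drought FPKM and a median length of 249 bases. With 0.5 read in place of an added FPKM these were 1638, 972, 3.79%, 3.17 FPKM and 259 bases. With 0.5 FPKM there were 365 contigs, 71 without a control read, with 3.17% of the drought reads and a median of 31.1 drought FPKM. With 5 FPKM there were 62, of which 1 had no control read, with 2.001% of the drought reads and a median of 199.9 FPKM. An 8-fold threshold gave 635 contigs, 72 without a control read, 5.35% of the drought reads and a median of 32.5 FPKM, and a 32-fold threshold gave 91, 17, 1.90% and 116 FPKM. These follow from how the added value and the threshold enter the rule.

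Filters on low levels, none or 5 FPKM, changed nothing, since a contig needs 15 FPKM to enter. A minimum of 100 drought reads left 202 contigs and 2.85% of the drought reads. The TPM scale (equal sums) gave 272 contigs with 3.03%. Scaling by the median ratio gave 221 and by the upper quartile of the contigs kept 227. The last 2 raise the drought values slightly. The TPM scale does so relative to the control and also raises the values of both libraries, so that the added 1 weighs less. All 3 therefore keep all 221 contigs by construction. Taking the upper quartile over contigs with a read, an alternative chosen after seeing the data, shifts them by -0.10 on the log2 scale and left 198 of the 221, with 2.76% of the drought reads. Contigs 563328 and 574102 stayed past 16-fold in all 14 values, with log2 ratios of 5.71 to 6.11 and 6.08 to 6.83. No paired analysis was possible because there is only 1 library of drought and 1 of control, which also leaves no replicate to omit. Depth limits the control side: 1 control read on 150 bases is worth 0.216 FPKM.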
